A study of Mus musculus with 12 samples.

Results

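The abundant processed pseudogenes are the rows of the count table that its annotation column types as processed pseudogene and that hold at least 120 expected counts summed over the 12 libraries. They number 1044 of 9641 processed pseudogenes and of 35509 genes in the table. Of the 9641, 4695 had any count, and the 1044 members held 97.9% of all counts on the biotype. Because the members were chosen by their counts, their abundance is described here and not tested. Just inside the threshold stood Gm18265, Gm43214 and Gm6914 with 120 counts each, and just outside it stood Gm7618 with 119.99, Rps15a-ps1 with 119.31 and Gm14886 with 119.28.

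A processed pseudogene is a copy of a messenger RNA that was reverse transcribed and inserted back into the genome, so it lacks the introns of its parent gene. The reverse transcriptase that does this comes from LINE-1, an active retrotransposon of the mouse, whose first reading frame (ORF1) encodes an RNA-binding protein and whose second (ORF2) an endonuclease and reverse transcriptase. Highly expressed genes, those of ribosomal proteins above all, have left many such copies, and reads from a copy that differs little from its parent can be hard to assign to either.

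The libraries came from the distal Fallopian tube of 6 wild-type mice of 4 weeks that carried the MADM RG;GR alleles on a mixed background, with no treatment. MADM (mosaic analysis with double markers) labels the descendants of single cells by recombination between chromosomes, so that clones can be seen and measured. From each mouse, 200 cells of large clones and 200 cells of small clones were pooled by laser microdissection, giving 6 libraries of each kind. All groups therefore share the MADM alleles, a library averages several clones, and the driver of the recombinase is not given in the sources used here.

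Total expected counts ranged from 3057979 to 4227129 per library. In the 5 libraries with the highest share of counts on chemoreceptor genes (both libraries of mouse 6, the large clones of mice 1 and 2, and the small clones of mouse 3), chemoreceptor genes took 7.86 to 11.0% of counts, against 0.841 to 4.17% in the other 7. These sets were drawn from the data and are not groups of the study. All 5 listed epithelial markers of the oviduct (Epcam, Krt8, Krt18, Pax8, Ovgp1) were detected, and their summed level was 594 to 2058 CPM (counts scaled to a library of 1000000) in the 5 libraries and 4348 to 13305 CPM in the 7. The 4 ciliated cell markers summed to 92.9 to 340 CPM in the 5 libraries and 674 to 3685 CPM in the 7. The summed levels of the smooth muscle, fibroblast, endothelial, immune and red blood cell lists overlapped between the sets. Their part in the results below was not tested. In such pools, fewer cells of a type and less RNA per cell cannot be told apart.

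The members' own sequences show what most of these counts lie on. The transcripts are those of GENCODE M21 (GRCm38), matched by gene identifier, which found all 1044. For 959 members the span in the table equals the transcript's length. The positions printed here are the table's own and belong to a build that the sources do not name, since only 2.96% of 35491 genes had the same chromosome and start in M21. The sequences below run 5′ to 3′ from the start of a transcript unless bases are given. The first pair shows ORF1-like members from different chromosomes, Gm47933 (chr9:101634952-101636062) and Gm48269 (chr10:50059135-50060245). Capitals mark the 2 of these 100 bases at which they differ.
Gm47933: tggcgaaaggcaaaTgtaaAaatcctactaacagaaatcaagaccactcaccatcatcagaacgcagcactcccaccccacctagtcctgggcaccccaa
Gm48269: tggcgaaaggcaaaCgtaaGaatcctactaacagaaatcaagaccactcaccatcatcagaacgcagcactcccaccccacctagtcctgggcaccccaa
The second pair shows the start of ORF2-like members, Gm48498 (chr12:14539405-14543245) and, from its base 2, Gm42785 (chr3:39877726-39881560), again with the 2 differing bases in capitals.
Gm48498: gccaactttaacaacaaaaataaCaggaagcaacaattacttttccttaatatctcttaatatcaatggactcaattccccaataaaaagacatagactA
Gm42785: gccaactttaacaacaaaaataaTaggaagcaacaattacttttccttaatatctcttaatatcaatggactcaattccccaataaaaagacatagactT
The most abundant member, Gm13722 (chr2:85920680-85923745), is a copy of Rnf6, which encodes a ubiquitin ligase, interrupted by LINE-1 sequence. Its bases 23 to 739 and 2404 to 3066 matched the Rnf6 coding sequence at 85.0 and 86.7% identity. Bases 715 to 864 run from the end of the Rnf6 match (base 739) into a LINE-1 match that starts at base 785, in capitals. Bases 741 to 801 matched the coding sequence of Cacna1e across that start, so the capitals do not mark where the Rnf6 copy ends.
Gm13722: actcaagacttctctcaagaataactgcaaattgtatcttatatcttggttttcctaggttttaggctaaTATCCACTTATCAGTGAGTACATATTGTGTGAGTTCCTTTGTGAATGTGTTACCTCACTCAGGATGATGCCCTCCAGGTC
Gm45647 (chr8:27270343-27270537) is given whole because 189 of its 195 bases lie in runs of GAA and GAG triplets, in capitals.
Gm45647: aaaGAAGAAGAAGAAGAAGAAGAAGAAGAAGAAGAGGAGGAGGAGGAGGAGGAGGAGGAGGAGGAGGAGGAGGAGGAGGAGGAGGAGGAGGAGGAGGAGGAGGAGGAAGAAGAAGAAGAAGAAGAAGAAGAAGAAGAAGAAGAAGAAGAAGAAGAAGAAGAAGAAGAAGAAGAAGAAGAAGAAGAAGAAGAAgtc
The last set shows copies of ribosomal protein genes. Rpsa-ps10 (chr3:149778295-149779179) differs from the coding sequence of Rpsa at 6 of its 885 bases, of which bases 191 to 230 hold 2 (capitals).
Rpsa-ps10: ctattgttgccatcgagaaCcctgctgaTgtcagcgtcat
Rpsa: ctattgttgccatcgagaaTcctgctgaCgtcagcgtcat
Rps12l1 (chr7:55663764-55664162) has the letters of the Rps12 coding sequence over all of its 399 bases, of which the first 60 are shown.
Rps12l1: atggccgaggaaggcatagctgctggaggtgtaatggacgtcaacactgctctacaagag

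Counts were concentrated in few members. The most abundant, Gm13722, held 7.57% of the 3434082 member counts, the top 10 held 37.3% and the top 50 held 71.6%. Only 20 members held 50% of the counts and 198 held 90%. The median member had 403 counts, and only 208 members had at least 1 count in every library. The median member drew 39.4% of its counts from 1 library, and 32 members drew at least 90% from 1 library.

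**Figure D1:**
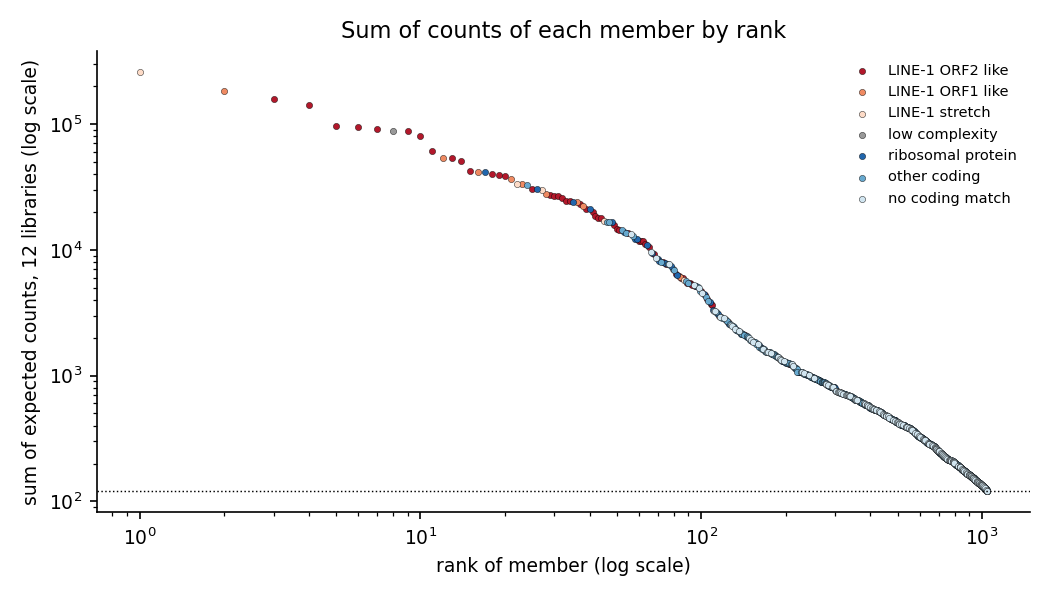
Sum of expected counts over the 12 libraries (log scale) of each of the 1044 members against its rank (log scale), coloured by sequence family, with the threshold of 120 counts as a dotted line. LINE-1-like members take 9 of the first 10 ranks if Gm13722, which carries LINE-1 sequence in part, is counted.

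The members were divided by sequence into families that had no part in the rule, though the division was made after the values had been seen and is described without a test. Matches to Gm47933 (ORF1), Gm48498 (ORF2) and a part of Gm13722 (3′ end) placed 20 members as ORF1 like and 67 as ORF2 like. All were taken as LINE-1 from general knowledge of that element and not from a repeat library. The part of Gm13722 was taken as the 3′ end that follows ORF2. It followed an ORF2 match within 100 bases in 105 of the 397 coding genes that matched it. In Gm13722 it adjoins an inner part of ORF2 on the opposite strand, not the end of ORF2. In all 87, the match covered at least 95% of the transcript. No limit was set on identity, which ran from 71.3 to 100% in ORF1-like and from 76.2 to 100% in ORF2-like members. The match lay mainly on the opposite strand in 9 of the 20 ORF1-like and 6 of the 67 ORF2-like members. Another 15 members, Gm13722 among them, carried at least 100 bases of such sequence in a part of the transcript. For Gm13722 the 3′ end match is a match to itself, but its ORF2 matches of 290 and 321 bases also pass 100. How many of the other members of the 15 rest on the 3′ end sequence was not tested. These 102 members were 9.77% of the members and held 69.8% of the member counts. The 87 ORF-like members alone held 59.5%. Counts on the 15 others include those on the rest of their transcripts. Members with a ribosomal protein gene as closest coding sequence were 344 and held 12.1%, members close to another coding sequence were 422 and held 10.9%, members with no coding match were 173 and held 4.41%, and 3 low-complexity members held 2.81%.

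The families differed in more than their parent. The median GC content was 38.8% in LINE-1 members and 50.4% in ribosomal protein members. The median number of counts per kb of transcript was 7724 in ORF1-like members, 4370 in ORF2-like members, 744 in ribosomal protein members and 475 in members with no coding match. The 87 ORF-like members lay on 12 chromosomes, with 22 on chromosome 10, 15 on chromosome 12 and 13 on chromosome 13.

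A search of protein-coding transcripts gave 86 of the 87 ORF-like members a match over at least 50% of their length at 80% identity or more. For 71 of the 86 the best match was a transcript of a chemoreceptor gene, Vmn2r79 in 49 cases, and in 84 of the 86 the match lay wholly outside the coding sequence. Among the 780 matched members without LINE-1 sequence, 2 had a chemoreceptor gene as best match. On the coding side, 195 of the Olfr genes (odorant receptors), 17.1% of them, had a transcript with at least 100 bases of LINE-1 sequence, and these held 86.2% of all Olfr counts. Among protein-coding genes that are not chemoreceptors, 1.05% had such a stretch, and these held 3.91% of the counts. LINE-1 sequence here includes the part of Gm13722 taken as the 3′ end, and these percentages were not tested without it.

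The members' share of counts varied several-fold between libraries. In large clones of mice 1 to 6 it was 12.3, 11.98, 3.36, 4.45, 3.95 and 14.6%. In small clones of mice 1 to 6 it was 5.64, 6.45, 10.01, 2.55, 2.29 and 13.5%. The groups overlapped over nearly the whole range, and the 5 libraries of higher chemoreceptor share stood above the other 7 (10.01 to 14.6% against 2.29 to 6.45%). In 5 of 6 mice the share was higher in large clones, and mouse 3 went the other way by 6.65 percentage points. The mean share was 8.44% ± 5.04 (SD, n = 6) in large and 6.73% ± 4.35 (SD, n = 6) in small clones, a difference of 1.70 points (two-sided exact permutation test over libraries, p = 0.528, adjusted p = 0.578 over 4 shares). Without mouse 3 the difference was 3.38 points (exact permutation p = 0.317), and without mouse 1 it was 0.708 points (exact permutation p = 0.794). Within the 7 libraries of lower chemoreceptor share the difference was -0.31 points, and within the 5 others it was 1.22 points. Both are given as a description without a p. The sets already divide the members' share, and some mice give both libraries to the same set.

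**Figure D2:**
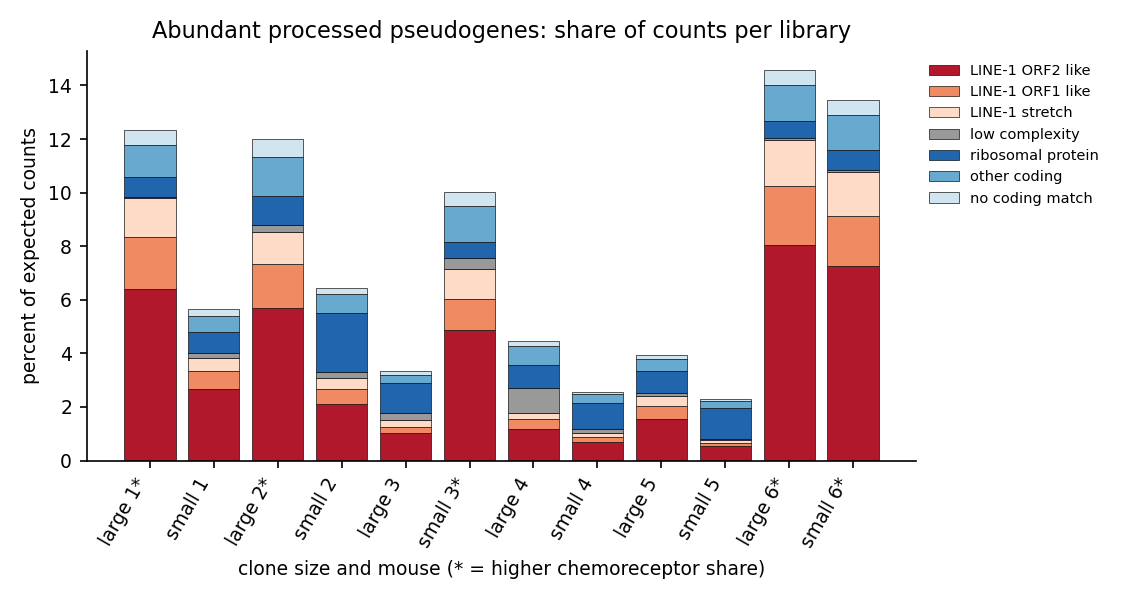
Percent of expected counts held by the members in each library, in order of mouse, stacked by sequence family; an asterisk marks the 5 libraries of higher chemoreceptor share. The bars of those 5 reach 10.01 to 14.6% and the LINE-1 families make up most of each, while the ribosomal protein part varies less except in small clones of mouse 2.

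LINE-1 members carried most of this variation. Their share was 9.81, 8.53, 1.53, 1.78, 2.41 and 11.96% in large clones of mice 1 to 6, and 3.81, 3.10, 7.17, 1.03, 0.763 and 10.8% in small clones. The 5 libraries again stood above the 7 with no overlap, and the median share was 5.52 times higher in them. Without the LINE-1 members, the members' share ranged from 1.52 to 3.45%, and the difference between large and small clones was 0.14 points (exact permutation p = 0.758). The split by parent class keeps the LINE-1 members. Members with a ribosomal protein parent took 0.870% ± 0.196 (SD, n = 6) in large and 1.07% ± 0.576 (SD, n = 6) in small clones (exact permutation p = 0.578). The difference was -0.20 points, and without mouse 2 it was -0.02. Members with another parent took 6.46% ± 4.35 (SD, n = 6) and 4.82% ± 3.83 (SD, n = 6; exact permutation p = 0.474), and members with no match took 1.11% ± 0.782 (SD, n = 6) and 0.842% ± 0.720 (SD, n = 6; exact permutation p = 0.519). After adjustment over the 4 shares each p was 0.578. Another parent does not mean a copy of another gene here. Of the 87 ORF-like members 86 had a match to a coding transcript, in 84 wholly outside the coding sequence. The family of other coding members took 0.904% ± 0.486 (SD, n = 6) in large and 0.760% ± 0.461 (SD, n = 6) in small clones.

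The within-mouse differences of the members' share were set against those of ribosomal protein and Olfr genes. In mice 1 to 6 the share in large minus that in small clones was 6.68, 5.54, -6.65, 1.91, 1.65 and 1.10 points for the members. For the 1138 Olfr genes it was 4.70, 3.10, -4.13, 0.554, 1.36 and 0.177 points. For the 89 ribosomal protein genes it was -11.4, -10.6, 11.5, 2.31, -2.40 and -1.09 points. The members and the Olfr genes had the same sign in all 6 mice (Pearson r = 0.988, exact permutation p = 0.00278, adjusted p = 0.0111; Spearman rho = 0.943, exact permutation p = 0.0167, adjusted p = 0.0222; 6 mice, 4 tests). The members and the ribosomal protein genes had opposite signs in 5 of 6 mice (r = -0.96, exact permutation p = 0.0111, adjusted p = 0.0222; rho = -0.83, exact permutation p = 0.0583). Without mice 1 and 3, farthest from the median, r was 0.944 for Olfr genes and -0.89 for ribosomal protein genes, with 4 mice left (exact permutation p = 0.0833 and 0.208). Spearman rho without mice 1 and 3 was 0.8 for Olfr genes and -0.4 for ribosomal protein genes. The relation with ribosomal protein genes thus rests in part on those mice, and it also missed 0.05 without mouse 2 or mouse 3 alone (exact permutation p = 0.0667 each). These shares divide one total: with each taken over counts without the other, r was 0.990 and -0.92. In mice 1 to 6 the LINE-1 members alone differed by 5.995, 5.43, -5.64, 0.752, 1.65 and 1.20 points. The relation of the members without them was not tested. The members and the Olfr genes also share LINE-1 sequence. LINE-1 members held 69.8% of member counts, and Olfr genes with a LINE-1 stretch held 86.2% of Olfr counts. How reads that fit both were divided was not tested, so these shares may not be separate measures. Olfr genes with a LINE-1 stretch had a median share of 6.42% in the 5 libraries and 1.05% in the 7. Olfr genes without one were also higher in the 5, at 0.818% against 0.298%. Members with a ribosomal protein parent alone had the other sign, with r = -0.65 for Olfr genes (exact permutation p = 0.146) and 0.730 for ribosomal protein genes (exact permutation p = 0.117). Within the 7 libraries of lower chemoreceptor share, from 5 mice, r was 0.893 with the Olfr share and -0.42 with the ribosomal protein share, given as a description.

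**Figure D3:**
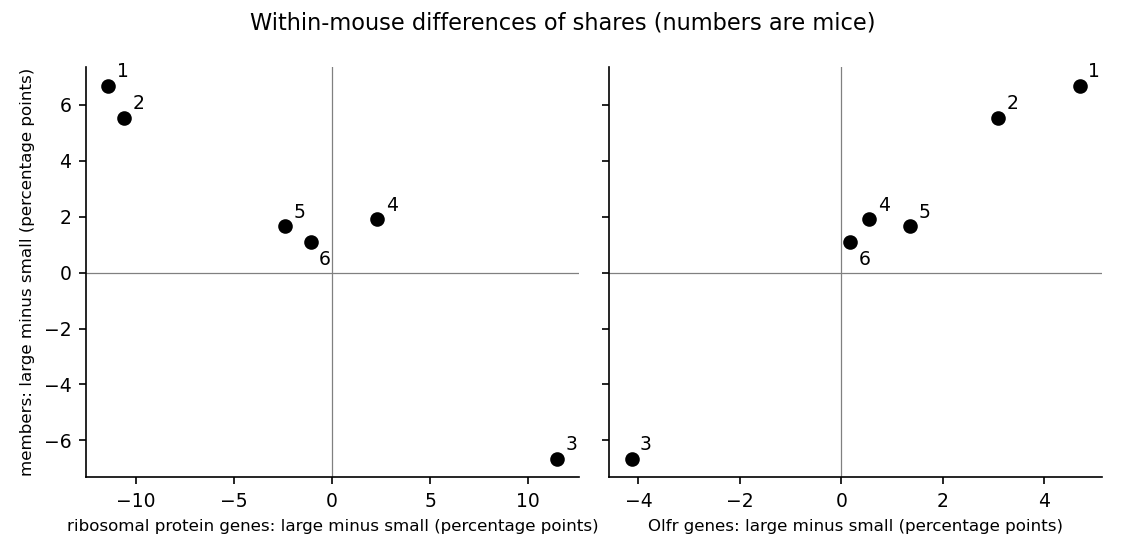
Difference between large and small clones (percentage points of counts) in the members' share against that of ribosomal protein genes (left) and Olfr genes (right), 1 point for each of 6 mice. The points for Olfr genes lie from lower left to upper right, and mouse 3 stands apart in both panels.

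The most abundant LINE-1 members rose and fell together between libraries. Gm13722 had 8247, 7955, 2623, 2455, 2450 and 10756 CPM in large clones of mice 1 to 6, and 3163, 3626, 8032, 1350, 1078 and 10719 CPM in small clones. Its level was at least 7955 CPM in the 5 libraries and at most 3626 CPM in the 7. Rnf6, whose coding sequence it copies in part, had 372 CPM ± 342 (SD, n = 6) in large and 285 ± 170 (SD, n = 6) in small clones. Gm13722 took 70.3 to 99.7% of the counts of the pair. The ORF1-like Gm47933 ranged from 4328 to 7636 CPM in the 5 libraries and from 508 to 2975 CPM in the 7. The ORF2-like Gm42785 ranged from 4765 to 6504 CPM in the 5 and from 668 to 2431 CPM in the 7. As a share of all LINE-1 member counts, Gm13722 held 8.58 to 12.6%, Gm47933 5.70 to 8.38% and Gm42785 5.24 to 7.54% over the 12 libraries. Of other named LINE-1 members, Gm48793 held 3.54 to 4.30%, Gm48269 1.33 to 2.46% and Gm47951 0.480 to 0.935%. How reads were divided among these members was not tested. The LINE-1 counts per Olfr count ran from 1.19 to 1.61. The other ORF2-like members of the top 12 (Gm48119, Gm47056, Gm37515, Gm48793, Gm48541, Gm48498 and Gm48082) and the ORF1-like Gm48269 were likewise higher in each of the 5 libraries than in any of the 7. Of those 8, the lowest member level in the 5 was 1350 CPM (Gm48082) and the highest in the 7 was 2347 CPM (Gm48119).

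Over the 535 members tested for expression, 84.1% had a higher median in the 5 than in the 7 libraries, against 52.8% of all 10848 genes tested. For 104 members the sets did not overlap with the 5 higher (19.4%, against 8.66% of all genes tested), and for 25 the 5 were lower (4.67%, against 9.97%). Of the 104, 73 were LINE-1 members, of which 100 were tested. Of the 25, 22 were ribosomal protein members, which is 12.7% of the 173 tested, against 9.97% of all genes tested. Over all members, tested or not, the median log2 ratio of the 5 to the 7 libraries (on CPM + 1) did not set LINE-1 members apart. It was 1.725 in LINE-1, 1.729 in no coding match, 1.569 in other coding and 1.498 in ribosomal protein members. The 3 low-complexity members had 0.329. The ratio of median shares was 5.52 in LINE-1, 3.31 in no coding match and 3.02 in other coding members. In ribosomal protein members it was 0.766. The threshold, the filter and the sets all depend on these counts, so the figures describe the libraries.

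Ribosomal protein members split by how close they were to the parent. The 344 members had 64 of the 89 ribosomal protein genes as closest coding sequence, with 26 copies of Rpl21, 25 of Rps2 and 19 of Rpl29. In the 5 libraries, the 89 genes themselves held a median of 3.85% of counts, against 16.4% in the 7, while the median for their copies was 0.738 and 0.964%. The copies thus amounted to 6.55 to 34.5 counts per 100 on the genes in the 5 libraries and 4.47 to 13.4 in the 7. Of 70 members under 90% identity, 63 had the higher median in the 5 libraries, with a median log2 ratio of 2.19 (on CPM + 1). The identity classes count all 344 members, tested or not. Of the 173 ribosomal protein members tested, 72.8% had the higher median in the 5, against 52.8% of all 10848 genes tested. The median log2 ratio was 1.87 between 90 and 95% identity (70 members), 1.60 between 95 and 98% (85 members) and 0.54 at 98% and over (119 members). Of the 14 members identical to the parent's coding sequence over their whole length, 13 had the higher median in the 7 libraries and none in the 5, with a median log2 ratio of -3.77. These 14 held 26.6% of the ribosomal protein member counts. The median sum of counts was 315 under 90% identity and 1618 in the identical members. A copy can reach the threshold of 120 counts through the libraries where it is high. The ratios by identity therefore describe the members chosen and are not a test.

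**Figure D4:**
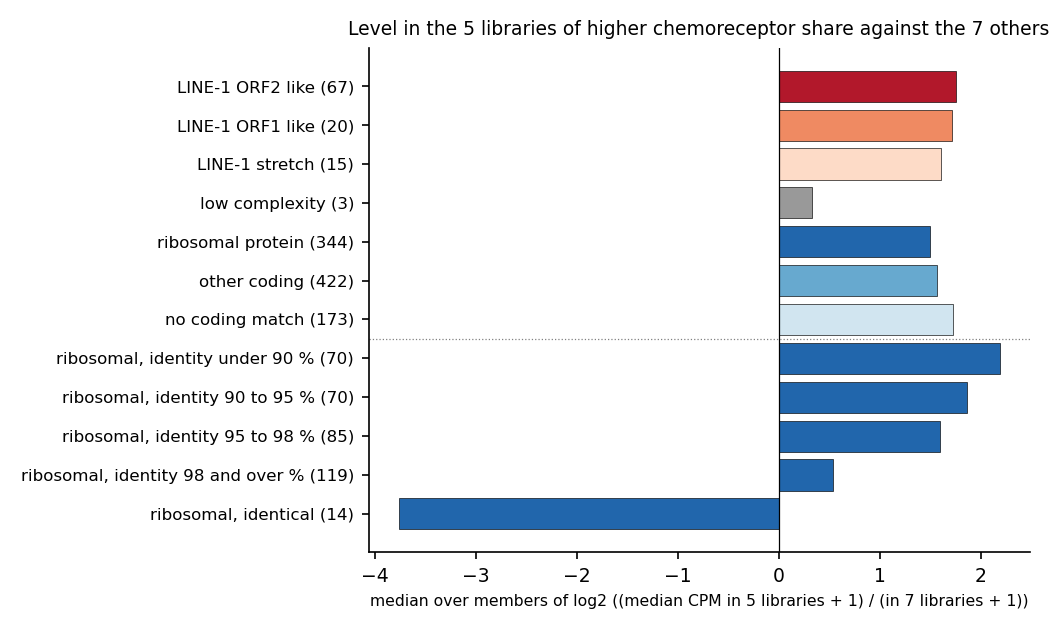
Median over members of the log2 ratio of median CPM + 1 in the 5 libraries of higher chemoreceptor share to that in the other 7, by sequence family (above the dotted line) and, below it, for ribosomal protein members by identity to the parent, where the 14 identical members are also part of the class of 98% and over. The number of members is in brackets, and the bar falls from 2.19 under 90% identity to -3.77 for identical members. Members were chosen by counts over these same libraries, so the bars are a description.

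Rps12l1, which matches the coding sequence of Rps12 (a protein of the small ribosomal subunit) in every base, had 732 to 2540 CPM in the 7 libraries. In the 5 it had 23.5, 63.5, 7.01, 11.9 and 0.00630 CPM, in order mouse 1 large, mouse 2 large, mouse 3 small, mouse 6 large and mouse 6 small, the last under the limit of 3 counts. The copy held 0.107 (small clones of mouse 6) to 95.3% of the counts of the pair, and over 50% in 11 of 12 libraries. Rps12 had 62.6 CPM ± 75.9 (SD, n = 6) in large and 59.3 ± 47.9 (SD, n = 6) in small clones. Rps12 and its 14 copies shared 52007 counts, of which the copies held 95.8%. Rpl28-ps1, identical to the coding sequence of Rpl28 (of the large subunit) over 414 bases, held 20.6 to 44.5% of the counts of that pair. Its level was 608 to 1281 CPM in the 7 libraries and 29.5 to 230 CPM in the 5. For 11 of the 64 parents the copies held more counts than the gene. How reads were divided between a gene and a near-identical copy was not tested, so the levels of such pairs, Rpl28 and Rpl28-ps1 included, are uncertain.

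Rpsa-ps10 stood apart in both libraries of mouse 2. Its level there was 2994 CPM in the large and 9858 CPM in the small clones. In the other large clones it had 10.5 (mouse 1), 15.4 (mouse 3), 94.4 (mouse 4), 17.1 (mouse 5) and 14.96 CPM (mouse 6), and in the other small clones 4.73 to 15.8 CPM. It held 25.9 and 30.6% of the counts of the pair with Rpsa, a laminin-binding protein of the small ribosomal subunit, in large and small clones of mouse 2, and at most 0.449% in any other library. Of the 41518 counts of Rpsa-ps10, 98.5% came from mouse 2. In all, 45 members drew at least 90% of their counts from 1 mouse, and in 10 of these each library of that mouse held at least 10%. Besides Rpsa-ps10, Rps3a3 (mouse 2) and Gm8170, Gm9633, Gm5692, Gm12529, Hmgb1-ps7, Rpl9-ps1, Gm8744 and Gm15542 (mouse 6) made up the 10, singled out after their values were seen.

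Gm45647, the GAA and GAG repeat, followed neither pattern. It had 239, 2129, 2915, 13311, 1033 and 460 CPM in large clones of mice 1 to 6. In the small clones it had 1720, 2045, 3564, 1617, 531 and 510 CPM. The 5 and the 7 libraries overlapped (239 to 3564 against 531 to 13311 CPM), and large clones of mouse 4 held 34.1% of its counts. All counts of 6 members lay in 1 library; the 3 with the largest sums were Gm7895, a copy of Ppm1b (a protein phosphatase), with all 473.62 counts in large clones of mouse 4, and Gm43717 and Fbl-ps2, a copy of fibrillarin, with all 292 and 228.3 counts in large clones of mouse 2. In every other library they had 0 counts, which allows up to 0.710 to 0.981 CPM before scaling, for counting error only. Of the largest members with no match over at least 50% of their length to a coding transcript, Gm14735 and Gm47951 carried LINE-1 sequence, as Gm13722 did, whose match to Rnf6 stays under that length. Gm14735 had 972 to 1340 CPM in the 5 libraries and 107 to 480 in the 7, and Gm47951 had 430 to 588 CPM in the 5 and 46.4 to 250 in the 7.

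**Figure D5:**
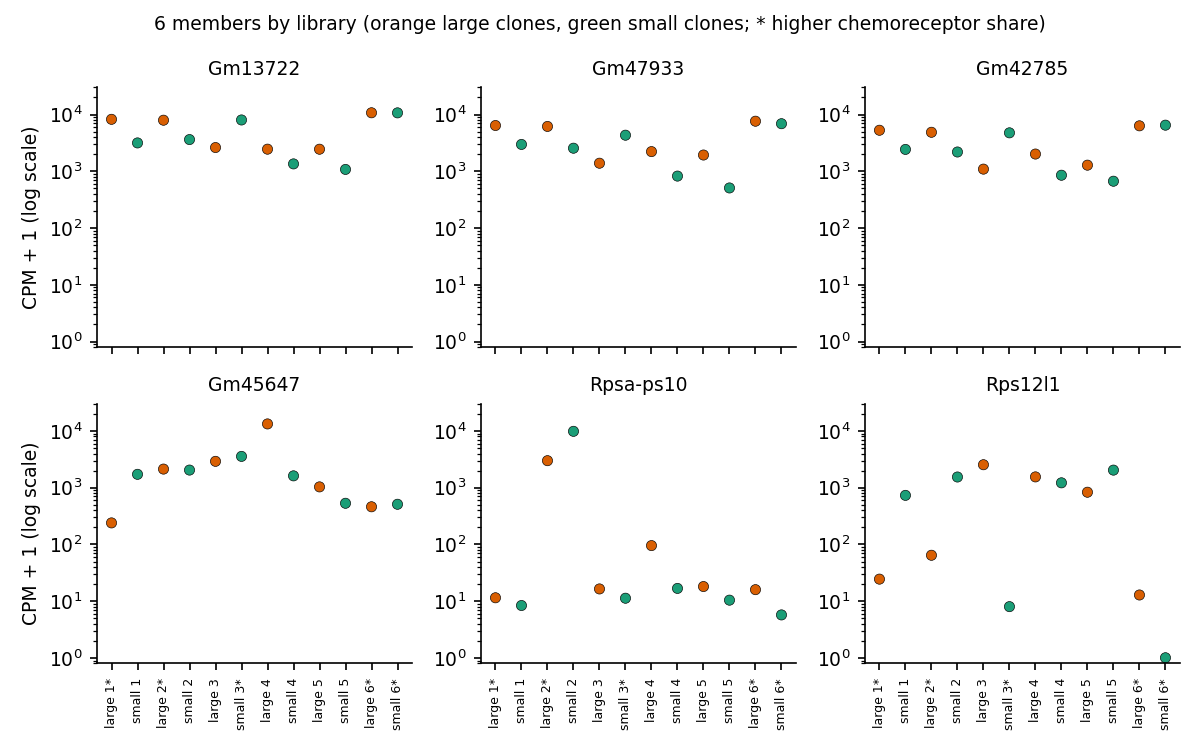
Level (CPM + 1, log scale) of 6 members in each library, orange for large and green for small clones, with an asterisk for the 5 libraries of higher chemoreceptor share. The 3 LINE-1 members of the top row move together, Gm45647 peaks at 13311 CPM in large clones of mouse 4, Rpsa-ps10 is high in both libraries of mouse 2, and Rps12l1 is low in the 5 marked libraries.

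Expected counts were often not whole numbers, which happens when a read fits more than one transcript and is divided. Of the members' values, 52.0% were not whole within 0.001, against 31.1% for protein-coding genes, 35.6% for Olfr genes and 84.5% for ribosomal protein genes. Among values above 0 the shares were 72.5, 48.5, 79.6 and 88.3%. The values of members that were not whole held 95.3% of their counts. Among values above 0, LINE-1 members had 98.8% that were not whole, ribosomal protein members 84.5%, other coding members 66.0% and members with no coding match 39.7%. All 12 values were whole for 202 members, of which none was a LINE-1 member and 23 were ribosomal protein members. By library, the share of values that were not whole ran from 35.8 to 65.8%. In each identity class from 90% up, the median ribosomal protein member had 100% of its values above 0 not whole, and below 90% identity it had 25.0%.

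No member passed the test of large against small clones. Of the 1044 members, 535 passed the filter on low counts; 0 had an adjusted p under 0.05 (0% of the 10848 genes tested) by edgeR's quasi-likelihood test with Benjamini-Hochberg adjustment. At an unadjusted p under 0.05 there were 13 members (2.43%, against 2.54% of all genes), 8 higher in large clones (1.5%, against 1.44%) and 5 lower (0.935%, against 1.1%). For 0 members did the large and small clones not overlap, in either direction, against 0.0277% of all genes with large higher and 0.0369% with large lower. DESeq2 called 1 of 479 members with an adjusted p (0.209%) without a term for mouse, against 5 of 10123 genes (0.0494%). With the term it called 3 of 535 members (0.561%), against 42 of 10848 genes (0.387%). The median log2 fold change was 0.28 over the members tested and 0.06 over all genes, with 64.3% and 53.2% above 0. By family it was 0.33 in LINE-1 members (92 of 100 above 0), 0.01 in ribosomal protein members (87 of 173 above 0) and 0.17 in other coding members (104 of 170 above 0). The per-mouse medians over the members tested were 0.87, 0.79, -1.32, 0.00, 0.99 and 0.04 on the log2 (CPM + 1) scale, with only mouse 3 below 0. The median was -0.09 within the 7 libraries and 0.07 within the 5, where all genes had -0.10 and 0.04. With the chemoreceptor share as a covariate it was 0.01.

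The members of lowest p, 3 in each direction, missed the threshold. Gm5385, a copy of Phgdh (the first enzyme of serine synthesis), had 31.6 CPM ± 31.3 (SD, n = 6) in large and 1.28 ± 1.72 (SD, n = 6) in small clones, higher in 5 of 6 mice. Its log2 fold change was 4.57 (SE 1.24, edgeR adjusted p = 0.9998), and DESeq2 gave an adjusted p of 0.0163. Gm5637, a copy of Arpc1b (a subunit of the Arp2/3 complex), had more in large clones of 6 of 6 mice, at 39.1 CPM ± 46.8 (SD, n = 6) against 1.75 ± 2.94 (SD, n = 6), with a log2 fold change of 4.46 (SE 1.32, edgeR adjusted p = 0.9998). With a term for mouse DESeq2 gave Gm5637 an adjusted p of 5.33e-05 and Gm5385 one of 0.00836. Gm9521, a copy of Eef1a1 (a translation elongation factor), was at 208 CPM ± 153 (SD, n = 6) against 58.5 ± 26.1 (SD, n = 6), higher in 6 of 6 mice. The lower values in large clones belonged to 4930529C04Rik, with 2.43 CPM ± 1.97 (SD, n = 6) against 29.6 ± 36.1 (SD, n = 6), Gm2272, with 2.25 ± 2.78 (SD, n = 6) against 24.8 ± 25.8 (SD, n = 6), and Gm12447, with 1.66 ± 2.65 (SD, n = 6) against 13.0 ± 14.7 (SD, n = 6). They resemble Zbed4, Pabpn1 and Rpl29. Their log2 fold changes were -3.60, -3.42 and -2.92, with an edgeR adjusted p of 0.9998 each.

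The ribosomal protein, listed housekeeping and Olfr genes did not pass either. Of the ribosomal protein genes 85 of 89 were tested, with 0 called and 0 at an unadjusted p under 0.05 by edgeR, and a median log2 fold change of -0.16. Of 53 listed housekeeping genes known for many processed copies, such as Gapdh, Hmgb1 and Npm1, 50 were tested, with 0 called, 0 at an unadjusted p under 0.05 and a median of -0.29. They were the closest coding sequence of 83 members, 33 of them copies of Gapdh, the glycolytic enzyme. Of the 1138 Olfr genes 303 were tested, with 0 called by edgeR and a median of 0.32. At an unadjusted p under 0.05 by edgeR, 3 were higher and 1 lower, against 1.44% higher and 1.1% lower of all 10848 genes. DESeq2 called 0 genes of these 3 lists, with or without a term for mouse, where it called 42 of 10848 and 5 of 10123 genes.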

How the data were processed

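The deposited table gives expected counts per gene in 12 libraries. Per the submitters' processing notes the authors used RSEM, Bowtie2 and GRCm38; versions, settings and read filters are not given in the sources used here. Per the file headers, columns come from isoform results, and rows are genes. The members and lists were chosen with earlier results of these data known. Expected counts were rounded and tested with edgeR 4.0.16 (filterByExpr, TMM, quasi-likelihood test, Benjamini-Hochberg over 10848 genes, which hold 97.2% of counts); levels are CPM from TMM. DESeq2 1.42.0 was an alternative. Shares were tested by exact permutation over libraries or over mice. Transcripts of GENCODE M21 were matched to coding transcripts with blastn 2.17.0 (at least 50% covered, 80% identity). The fits and the matching were tested on simulated data.

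Named members are the 12 with the largest sum, the 3 lowest p in each direction, the 3 with the largest sums of 6 whose counts all lay in 1 library, the 3 largest of each parent class, and those at the threshold. Alternatives were another normalization, filters, DESeq2, unrounded counts, each mouse left out, the 2 sets of libraries, a chemoreceptor covariate, other thresholds, totals, tolerances and match limits, and a term for mouse. The LINE-1 families, and the alternatives that rest on them, were chosen after seeing the data.

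The labels give each mouse 1 large and 1 small library, so mouse numbers pair them; the correlations of their deviations from the group means were -0.02, -0.01, -0.38, 0.28, 0.52 and 0.64 for mice 1 to 6. At most 0.769% of genes with at least 10 counts had equal counts in any pair of libraries. The precision of shares is set by mice, not by depth (3057979 to 4227129 counts per library).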

Additional observations from a re-analysis of the deposited data

Results flagged for a closer look

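In groups of 6 libraries, 68 groups of values were searched for a library far from the other 5, and 11 stood out. Chance flags about 1 in 20 groups, but the count is not set against that: Gm7895, Gm43717 and Fbl-ps2 were named because their counts lie in 1 library, and the shares repeat Gm45647 and Rpsa-ps10. The share of members with a ribosomal protein parent reached 2.18% in the small clones of mouse 2, where the other 5 had 0.606 to 1.14%, and Rpsa-ps10 was at 9858 CPM there against 4.73 to 15.8 CPM. In large clones of mouse 2, Rpsa-ps10 was at 2994 CPM against 10.5 to 94.4 CPM, Gm5637 at 130 CPM against 5.35 to 46.6 CPM, and Gm43717 and Fbl-ps2 were at 68.8 and 53.8 CPM against 0 counts elsewhere. In large clones of mouse 4, the low-complexity members took 0.944% of counts against 0.0340 to 0.273%, Gm45647 was at 13311 CPM against 239 to 2915 CPM, and Gm7895 was at 210 CPM against 0 counts. Gm12447 was at 6.87 CPM in large clones of mouse 1 against at most 1.82 CPM, and Gm5637 at 7.64 CPM in small clones of mouse 6 against at most 1.49 CPM.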

How the results depend on the processing

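With mouse as a replicate block, edgeR called 0 members, as it did without it, and the members' median log2 fold change was 0.38; swaps within mice gave an exact permutation p of 0.344 for the members' share. The count of members called was 0 in every edgeR fit tried, 1 with DESeq2 (5 of all genes) and 3 with DESeq2 and the block (42 of all genes). At an unadjusted p under 0.05 the lowest count was 2 of 137 members (1.46%, against 2.98% of all genes) with at least 10 counts in every library, and the highest 94 of 1044 (9.0%, against 11.4%) with no filter. The members' share reversed to -0.31 points in the 7 libraries of lower chemoreceptor share, the share with a ribosomal protein parent to 0.14 points in the 5 others, and the log2 fold change of Gm12447 to 0.66 in those 5; the cause was not tested. Members with a ribosomal protein parent alone gave r = 0.730 with the ribosomal protein share (exact permutation p = 0.117) and -0.65 with the Olfr share (exact permutation p = 0.146). Without the 2 farthest mice r was -0.89 for the ribosomal protein and 0.944 for the Olfr relation, and rho was -0.4 and 0.8. Fewer mice are left. Leaving out each mouse gave -0.997 to -0.93 for the ribosomal protein relation, 0.970 to 0.992 for the Olfr relation, 0.708 to 3.38 points for the members' share, 0.10 to 0.59 for the median log2 fold change and 4.07 (without mouse 4) to 6.22 for the ratio of LINE-1 shares. Counting values above 0 alone moved the share of values not whole to 72.5%. Stricter matching left 638 members with a parent and coding sequences alone 792, of 874. Depth limits the least abundant members: 509 of 1044 failed the filter on low counts.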
